A study of Mus musculus with 72 samples.

Results

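The Krüppel-like factors analysed were the 8 genes Klf2, Klf3, Klf4, Klf6, Klf7, Klf9, Klf10 and Klf13, taken by symbol from the 25124 genes of the RNA table. To these were added the 100 ATAC-seq peaks, of 51984 in all, whose nearest gene in the deposited annotation was one of the 8. All 8 genes and all 100 peaks passed the filters on low values. The cells were RAW264.7, a mouse macrophage-like line labelled as BALB/c. They carried, by lentivirus, a short hairpin RNA against SMRT (shSMRT), against NCOR (shNCOR) or against GFP (shGFP, the control), so every group had been infected, and the samples used here were untreated. Each group had 3 RNA-seq and 3 ATAC-seq libraries, and the other 54 of the 72 samples were not analysed here. The labels give no count of hairpins or of separately infected populations. Loss of the hairpin's target and any other difference of an infected population cannot be told apart, and p-values measure only the spread between libraries, which may be technical. The ATAC protocol in the labels speaks of wild-type cells, whereas the titles name the hairpins; the titles were followed.

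Krüppel-like factors are transcription factors that bind GC-rich and CACCC-containing DNA through zinc fingers near the C terminus. Their N-terminal parts differ and recruit either acetyltransferases or corepressors such as CtBP and SIN3A. NCOR and SMRT are related corepressors that bring the deacetylase HDAC3 to transcription factors. In macrophages, KLF2 and KLF4 are known to restrain NF-kB-driven inflammatory genes, and KLF4 is known to promote monocyte differentiation and alternative activation. KLF6 is known to promote inflammatory gene expression in these cells, whereas KLF10, an early gene of the TGF-beta response, acts mainly as a repressor.

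The promoters of Klf4, Klf6 and Klf13 are printed because their promoter peaks are given library by library below. They are RefSeq sequences of GRCm38.p6 (mm10), from 250 bases before to 50 after the start site, with CACCC and GGGCGG in capitals on either strand. The first is chr4:55532426-55532725 (minus strand), the second chr13:5861239-5861538 (plus strand) and the third chr7:63938866-63939165 (minus strand).
Klf4: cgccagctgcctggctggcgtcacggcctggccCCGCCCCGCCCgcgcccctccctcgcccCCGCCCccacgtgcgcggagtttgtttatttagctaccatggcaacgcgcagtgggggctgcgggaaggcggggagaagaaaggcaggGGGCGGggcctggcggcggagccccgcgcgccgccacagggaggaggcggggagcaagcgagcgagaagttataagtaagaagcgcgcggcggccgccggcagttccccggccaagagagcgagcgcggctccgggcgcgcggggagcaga
Klf6: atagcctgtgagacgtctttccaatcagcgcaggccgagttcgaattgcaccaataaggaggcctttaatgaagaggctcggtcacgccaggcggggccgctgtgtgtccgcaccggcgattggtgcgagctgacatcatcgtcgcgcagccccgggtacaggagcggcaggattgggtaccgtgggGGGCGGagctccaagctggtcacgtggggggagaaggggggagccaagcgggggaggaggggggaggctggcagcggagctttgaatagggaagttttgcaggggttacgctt
Klf13: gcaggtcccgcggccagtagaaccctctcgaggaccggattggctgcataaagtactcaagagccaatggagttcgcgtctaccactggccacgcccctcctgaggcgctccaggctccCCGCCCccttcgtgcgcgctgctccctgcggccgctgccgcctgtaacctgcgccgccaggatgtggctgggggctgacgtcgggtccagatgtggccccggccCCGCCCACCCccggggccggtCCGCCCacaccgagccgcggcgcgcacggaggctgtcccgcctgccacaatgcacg
Of the 7 members with a sequence in the RefSeq table, 6 held GGGCGG, the GC box, which 35.7% of 32851 promoters of this length held. CACCC, the core of the site that these factors bind, was in 5 of the 7, against 57.5% of all promoters. The Klf4 promoter held GGGCGG at 4 places and no CACCC, and the Klf6 promoter held it at 1 place and no CACCC. The Klf3 promoter held the most, with GGGCGG at 6 places and CACCC at 5, some of them overlapping. The Klf9 promoter held CACCC once and an AP-1 match (TGANTCA, in 7.81% of all promoters) and no GGGCGG. GC content was 58.3% to 76.7% in the 7 promoters, against a median of 52.7% over all promoters. No match was found in the 7 windows for TATTTATA (1.70% of all promoters), AGGTCA (16.3%), TTCNNTTTC (8.56%) or TGACGTCA (1.79%), all searched on both strands.

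The RNA libraries held 39.15 to 49.08 M reads (M, mega) and the ATAC libraries 6.06 to 10.84 M. Ncor1, which encodes NCOR, averaged 19.8 ± 0.748 RPKM in shSMRT, 4.04 ± 0.372 in shNCOR and 19.1 ± 0.973 in shGFP (SD, n = 3 each). Of 9 macrophage markers, 8 were at 1 RPKM or more in every library, and Mertk was below it. Their summed level was 9997 to 10538 RPKM in shSMRT, 8200 to 8485 in shNCOR and 7062 to 7215 in shGFP. A sum of RPKM mainly follows its most abundant genes. The 8 tested markers did not all follow this sum: in shSMRT against shGFP 7 rose and Cd14 fell (-0.14 ± 0.03). Of all tested genes 24.4% were called higher there and 31.4% lower. In shNCOR against shGFP 3 rose and 3 fell, with Csf1r (-0.27 ± 0.03) and Itgam (-0.27 ± 0.05) among those that fell. In that comparison 17.6% of all tested genes were called higher and 20% lower. Markers of lymphocytes (5), neutrophils and mast cells (6), fibroblasts and epithelium (6) and erythroid cells (3) stayed below 1 RPKM in every library, with 2, 5, 4 and 2 of them at 0 throughout. The part of the macrophage markers' difference in the results below was not tested.

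RPKM divides reads by exon length and library size, so levels of genes can be set side by side. In shGFP cells the order from the most to the least abundant was Klf6, Klf10, Klf4, Klf13, Klf2, Klf9, Klf7 and Klf3. The shGFP libraries of each gene did not overlap with those of the next in that order. Klf6 alone made up 41.8 ± 0.523% of the summed RPKM of the 8 genes in shSMRT, 44.1 ± 1.41% in shNCOR and 35.1 ± 0.651% in shGFP (SD, n = 3 each). Klf4 made up 7.29 ± 0.383%, 3.19 ± 0.513% and 13.5 ± 0.312% in the same order of groups. Klf4 thus ranked 3 of 8 in shGFP, and its mean in shNCOR lay below that of Klf7, with overlapping libraries. The sum of the 8 genes was 76.2 ± 0.302 RPKM in shSMRT, 72.8 ± 1.03 in shNCOR and 63.2 ± 1.95 in shGFP.

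**Figure D1:**
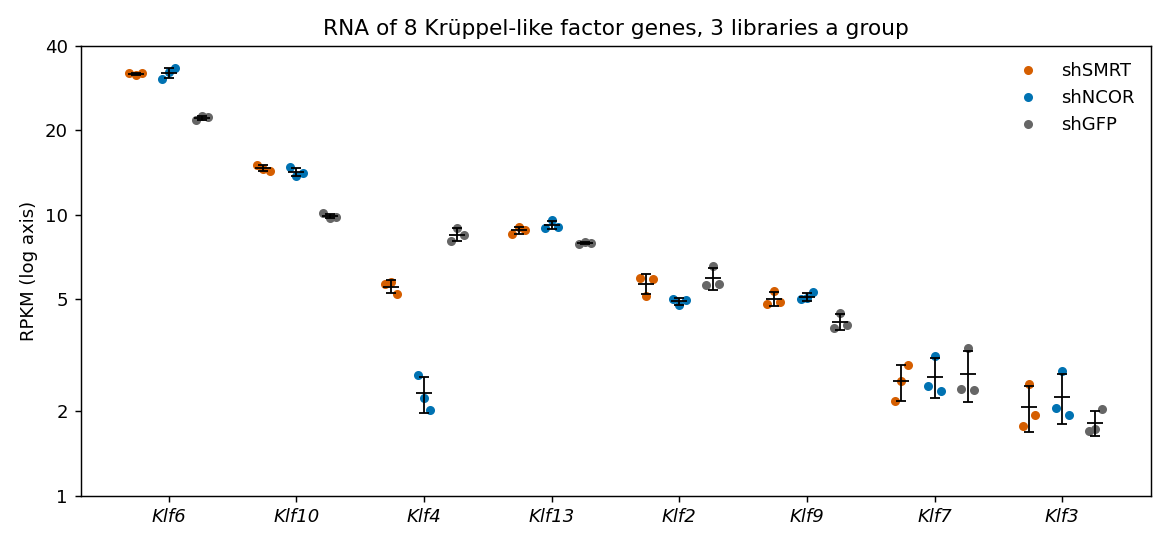
RPKM on a log axis for each of the 8 genes, ordered by their mean in shGFP; points are single libraries, and bars are the mean ± SD of 3 libraries a group. Klf4 libraries of shNCOR lie lowest and those of shGFP highest, with shSMRT between them, while Klf6 and Klf10 lie higher in both knockdowns than in shGFP.

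Klf4 was the member that differed most, falling in both knockdowns and further in shNCOR. Its 3 libraries were at 5.66, 5.79 and 5.21 RPKM in shSMRT, 2.69, 2.23 and 2.02 in shNCOR, and 8.07, 8.97 and 8.48 in shGFP. None of the 3 groups overlapped with another. The log2 fold change of RPKM + 1 was -0.54 ± 0.08 (SE) in shSMRT against shGFP (limma, adjusted p = 0.000127) and -1.52 ± 0.08 in shNCOR against shGFP (limma, adjusted p = 5.95e-08). Between the knockdowns, Klf4 was higher in shSMRT than in shNCOR by 0.99 ± 0.08 (limma, adjusted p = 1.33e-06). The mean RPKM in shNCOR was 0.272 times that in shGFP, and in shSMRT 0.653 times. In bulk RNA, fewer cells expressing a gene and less RNA per cell cannot be told apart.

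Klf6 and Klf10 rose by similar amounts in both knockdowns. Klf6, an early-response factor of injury and inflammation, was at 32.0, 31.5 and 31.9 RPKM in shSMRT, 30.6, 32.3 and 33.3 in shNCOR, and 21.8, 22.5 and 22.3 in shGFP. Every knockdown library lay above every shGFP library. Its log2 fold change was 0.50 ± 0.03 in shSMRT (limma, adjusted p = 5.2e-07) and 0.51 ± 0.03 in shNCOR (limma, adjusted p = 6.18e-07). Klf10 was at 15.0, 14.6 and 14.4 RPKM in shSMRT, 14.8, 13.8 and 14.1 in shNCOR, and 10.1, 9.79 and 9.86 in shGFP. Again the knockdown and shGFP libraries did not overlap. Its log2 fold change was 0.52 ± 0.04 in shSMRT (limma, adjusted p = 1.05e-06) and 0.48 ± 0.04 in shNCOR (limma, adjusted p = 3.14e-06). The difference of shSMRT from shNCOR was -0.01 ± 0.03 for Klf6 (limma, adjusted p = 0.823) and 0.04 ± 0.04 for Klf10 (limma, adjusted p = 0.406).

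Klf9 and Klf13 rose by less. Klf9, a glucocorticoid- and thyroid hormone-responsive factor, was at 4.80, 5.37 and 4.91 RPKM in shSMRT, 5.00, 5.05 and 5.31 in shNCOR, and 3.96, 4.46 and 4.05 in shGFP. The knockdown libraries lay above all of shGFP, with log2 fold changes of 0.23 ± 0.06 in shSMRT (limma, adjusted p = 0.00769) and 0.25 ± 0.06 in shNCOR (limma, adjusted p = 0.00695). Klf13, related to Klf9 and known as a regulator of the chemokine gene Ccl5 in T cells, was at 8.56, 9.03 and 8.84 RPKM in shSMRT, 9.01, 9.57 and 9.03 in shNCOR, and 7.88, 8.02 and 7.93 in shGFP. The groups did not overlap with shGFP, and the log2 fold change was 0.13 ± 0.04 in shSMRT (limma, adjusted p = 0.0198) and 0.19 ± 0.04 in shNCOR (limma, adjusted p = 0.00461). The call of Klf13 in shSMRT was lost with quantile normalization (adjusted p = 0.0529) and once the exon length trend was removed (adjusted p = 0.131), and without shGFP replicate 1, shGFP replicate 3, shSMRT replicate 2 or shSMRT replicate 3.

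Klf2, the endothelial and T cell quiescence factor of the same subgroup as Klf4, was called in 1 comparison. It was at 5.96, 5.14 and 5.93 RPKM in shSMRT, 5.01, 4.77 and 4.98 in shNCOR, and 5.61, 6.56 and 5.66 in shGFP. The shNCOR libraries lay below all others, whereas shSMRT and shGFP overlapped. The log2 fold change was -0.06 ± 0.07 in shSMRT (limma, adjusted p = 0.516) and -0.23 ± 0.07 in shNCOR (limma, adjusted p = 0.0229). The shNCOR call ended with no filter on low values (adjusted p = 0.0522) and without shGFP replicate 2 (adjusted p = 0.0862) or shNCOR replicate 2 (adjusted p = 0.0691). Between the knockdowns Klf2 was at 0.17 ± 0.07 (limma, adjusted p = 0.0562), so that its fall in shNCOR was not shown to differ from its value in shSMRT.

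Klf3 and Klf7 were not called in any of the 3 comparisons by limma or by voom on recovered reads, and 0 of their values had an unadjusted p under 0.05. Klf3, a repressor that binds CtBP, was at 1.78, 2.51 and 1.94 RPKM in shSMRT, 2.06, 2.78 and 1.93 in shNCOR, and 1.69, 1.73 and 2.03 in shGFP. Klf7 was at 2.18, 2.55 and 2.93 RPKM in shSMRT, 2.45, 3.15 and 2.36 in shNCOR, and 2.40, 3.36 and 2.38 in shGFP. Groups overlapped for both genes, which were also the least abundant. Their log2 fold changes in shNCOR and shSMRT were 0.20 ± 0.11 and 0.12 ± 0.11 for Klf3, and -0.02 ± 0.12 and -0.06 ± 0.12 for Klf7. The standard errors leave changes of the size seen for Klf9 unresolved in these genes.

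**Figure D2:**
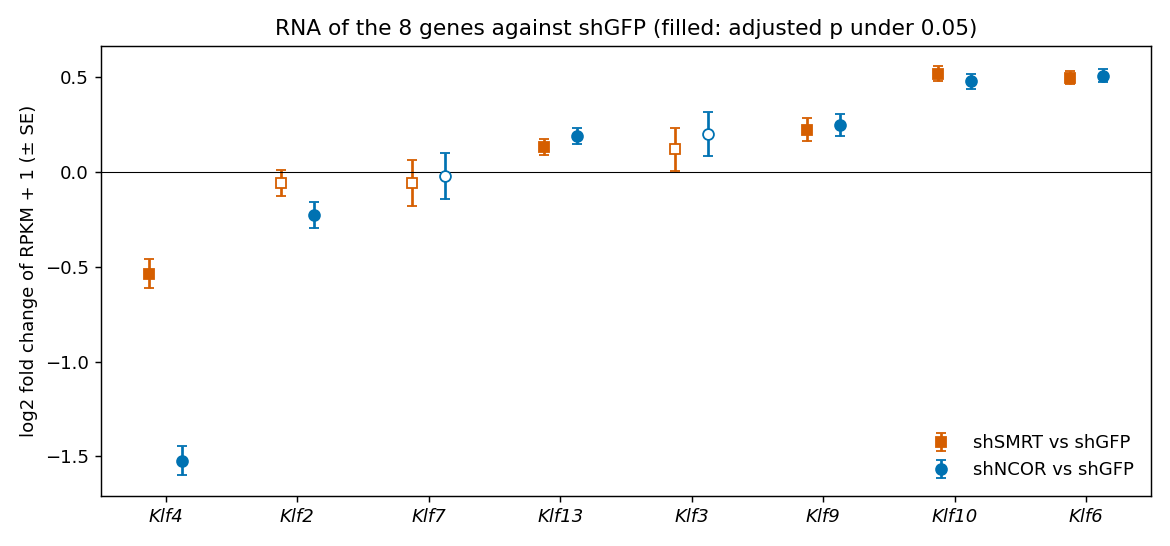
Log2 fold change of RPKM + 1 against shGFP for the 8 genes, ordered by the value in shNCOR, with SE from the limma fit; squares are shSMRT, circles shNCOR, and filled symbols had an adjusted p under 0.05. Klf4 lies at -0.54 in shSMRT and -1.52 in shNCOR, while Klf6 and Klf10 lie near 0.5 in both.

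In total 4 of 8 members rose and 1 fell in shSMRT against shGFP, where 55.8% of 10789 tested genes were called, 24.4% higher and 31.4% lower. In shNCOR against shGFP 4 rose and 2 fell, where 37.6% were called, 17.6% higher and 20% lower. For shSMRT against shNCOR, Klf4 was called higher and no other member was called, where 51.8% of genes were called, 22.8% higher and 29% lower. With so few members these counts are a description. Groups did not overlap for 5 members in shSMRT against shGFP (63.1% of all tested genes), for 6 in shNCOR against shGFP (48.1%) and for 2, Klf4 and Klf2, between shSMRT and shNCOR (58.9%). Both knockdowns share the shGFP libraries, so that like values in both are not independent. Reads were counted on both strands, and the gene models of other genes that overlapped a member averaged at most 0.0703 RPKM in any group.

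The 3 tested genes whose RNA pattern over the 9 libraries was most like that of Klf4 were Lgals9 (Pearson r 0.992), Reep4 (0.990) and Gpr84 (0.990), among 445 genes. The genes compared had to pass a lower limit on spread, set for each member below its own spread. Lgals9, which encodes the lectin galectin-9, averaged 12.7 RPKM in shSMRT, 3.97 in shNCOR and 21.1 in shGFP. For Klf6 they included the interferon receptor chain gene Ifnar1 (0.996) and the lysosomal peptidase gene Tpp1 (0.996), among 3541. For Klf10 they were the cathepsin gene Ctsl (0.997), Cyb5a (0.995) and the galectin-3 gene Lgals3 (0.994), among 3586. The 9 points fall into the 3 groups, so r mainly reflects the order of the group means.

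Of 18 other Klf and Sp genes, 5 passed the filter. By limma 0 of 5 were called in shNCOR against shGFP, where 37.6% of all tested genes were called. By voom on recovered reads 0 were called there too, and 1 (Sp3) had an unadjusted p under 0.05 by limma. In shSMRT against shGFP, Klf16 averaged 19.0 ± 0.358 RPKM in shSMRT and 21.7 ± 0.758 in shGFP (log2 fold change -0.18 ± 0.04, limma, adjusted p = 0.00129), and Sp3 20.8 ± 0.905 and 23.1 ± 0.345 (-0.14 ± 0.04, limma, adjusted p = 0.0175). Both fell. Sp3's call was lost without shGFP replicate 2, shSMRT replicate 1 or shSMRT replicate 3. Sp1, which shares GC-box sites with many KLF proteins, averaged 16.2 RPKM in shSMRT, 15.6 in shNCOR and 15.7 in shGFP and was not called. Klf8 averaged 1.21, 0.98 and 1.13 RPKM in the same order and Sp2 7.44, 8.50 and 8.11, and neither was called against shGFP. Klf16 and Sp2 were lower in shSMRT than in shNCOR (-0.11 ± 0.04, limma, adjusted p = 0.0221, and -0.17 ± 0.07, limma, adjusted p = 0.0483). Of all tested genes 29% were called lower in that comparison and 22.8% higher. The Klf16 call was lost in 5 and the Sp2 call in 10 of the alternatives and left-out libraries.

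Of 28 genes for partners and regulators of KLF proteins, all tested, 13 rose and 6 fell in shSMRT against shGFP, where 24.4% of all tested genes were called higher and 31.4% lower. Their median log2 fold change was 0.13, against -0.02 over all genes. In shNCOR 4 rose and 6 fell, where 17.6% of all tested genes were higher and 20% lower, with a median of 0.02, against 0.00 over all genes. Tgfbr1, a receptor kinase for TGF-beta, which is known to induce Klf10, rose in both: it averaged 19.9 ± 0.25 RPKM in shSMRT, 14.4 ± 0.215 in shNCOR and 8.16 ± 0.214 in shGFP. The early-response factor Egr1 averaged 24.3 ± 1.2 RPKM in shSMRT, 15.0 ± 0.457 in shNCOR and 10.9 ± 0.226 in shGFP and was called higher in both. Mef2c, one of the MEF2 factors that induce Klf2 and Klf4 downstream of the kinase ERK5, fell in both, with 28.4 ± 1.59 RPKM in shSMRT, 25.9 ± 0.311 in shNCOR and 36.8 ± 1.58 in shGFP. Mef2d was called lower in shNCOR (-0.34 ± 0.04, limma, adjusted p = 9.03e-05) but higher in shSMRT. It averaged 32.2 ± 0.758 RPKM in shSMRT, 22.3 ± 1.1 in shNCOR and 28.4 ± 1.2 in shGFP. Atf4 was called lower in both, with -0.40 ± 0.03 in shSMRT (limma, adjusted p = 1.44e-06). Its means were 134.9 ± 4.51 RPKM in shSMRT, 149.6 ± 2.91 in shNCOR and 178.0 ± 4.2 in shGFP. Between shSMRT and shNCOR, 11 were higher and 4 lower, where 22.8% of all tested genes were higher and 29% lower, with Egr1 (0.66 ± 0.04) and Mef2d (0.51 ± 0.04) the highest and Wwp1 (-0.21 ± 0.05), a ubiquitin ligase for KLF proteins, and Atf4 (-0.15 ± 0.03) the lowest. The genes for the kinase MEK5 and ERK5, Map2k5 and Mapk7, were not called in any of the comparisons.

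Of 25 reported targets of KLF proteins in various cell types, 15 were tested. In shSMRT against shGFP 9 rose and 5 fell, where 24.4% of all tested genes rose and 31.4% fell, with a median log2 fold change of 0.21, against -0.02 over all genes. In shNCOR against shGFP 5 rose and 7 fell, where 17.6% of all tested genes rose and 20% fell, with a median of -0.11, against 0.00. S1pr1, a KLF2 target in T cells, rose in shNCOR (1.58 ± 0.04, limma, adjusted p = 5.7e-10) and was called lower in shSMRT. It averaged 4.75 ± 0.211 RPKM in shSMRT, 17.7 ± 0.11 in shNCOR and 5.26 ± 0.138 in shGFP. Tlr4, the lipopolysaccharide receptor, was called higher in both, with 0.83 ± 0.04 in shNCOR (limma, adjusted p = 3.82e-08). Its means were 12.5 ± 0.338 RPKM in shSMRT, 16.9 ± 0.596 in shNCOR and 9.10 ± 0.0303 in shGFP. Ccnd1, which encodes cyclin D1, fell in both knockdowns, with 116.7 ± 1.86 RPKM in shSMRT, 79.4 ± 2.06 in shNCOR and 184.0 ± 1.72 in shGFP. Ccl5 was low and fell in both, with 0.97 ± 0.36 RPKM in shSMRT, 0.686 ± 0.0116 in shNCOR and 1.73 ± 0.459 in shGFP; its call in shSMRT was lost without shGFP replicate 3 or shSMRT replicate 1. The integrin gene Itgb7 (0.73 ± 0.07) and the urokinase gene Plau (0.66 ± 0.05) rose in shSMRT. In shNCOR Itgb7 was not called, and Plau was called lower, at 75.1 ± 3.61 RPKM against 89.1 ± 2.44 in shGFP. In shSMRT against shNCOR, 7 were higher and 3 lower, where 22.8% of all tested genes were higher and 29% lower, with Plau (0.91 ± 0.05) and Itgb7 (0.80 ± 0.07) the highest and S1pr1 (-1.70 ± 0.04) and Tlr4 (-0.41 ± 0.04) the lowest.

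Accessibility is given as reads in a peak per 10 M reads of the library. The 100 peaks comprised 8 at promoters, 15 within genes and 77 in intergenic sequence. Klf4 had 28, Klf6 18, Klf7 15, Klf10 12, Klf2 10, Klf3 8, Klf13 5 and Klf9 4. They were assigned to a member only as the nearest start site, up to 494 kb away, and 4 of the Klf2 peaks lay in introns of Eps15l1. In shSMRT against shGFP 5 member peaks were higher and 17 lower, where 17.7% of 51469 tested peaks were called (6.81% higher and 10.9% lower). In shNCOR against shGFP 5 were higher and 12 lower, where 8.58% were called (4.58% higher and 4% lower). Scaling matters here, since reads in peaks made up 47.6 to 49.9% of the library in shSMRT, 54.7 to 55.7% in shNCOR and 50.6 to 54.0% in shGFP. Scaled to reads in peaks, the member peaks were 8 higher and 11 lower in shSMRT (14.3% of all called, 8.83% higher and 5.44% lower) and 3 higher and 13 lower in shNCOR (7.83%, 2.83% higher and 5% lower). Over all peaks, the split was 3506 higher and 5595 lower in shSMRT as deposited, against 4543 and 2800 scaled to reads in peaks, and 2357 and 2057 in shNCOR, against 1458 and 2572. Of the member peaks called as deposited, 16 of 22 in shSMRT and 15 of 17 in shNCOR were called in the same direction with both scalings. In shNCOR the count of called member peaks was 9, 10 and 11 without shGFP replicates 1, 2 and 3 and 8 without shNCOR replicate 2, and in shSMRT 14 without shGFP replicate 1.

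Of the 8 promoter peaks, those of Klf4 and Klf13 were lower in shSMRT, where 22.7% of all promoter peaks were called lower as deposited. The Klf4 promoter peak (chr4:55532441-55533096), which covers 285 of the 300 bases printed, was at 144.6, 184.9 and 179.7 in shSMRT, 183.5, 201.4 and 191.6 in shNCOR, and 244.9, 223.1 and 234.2 in shGFP. Both knockdowns lay below shGFP in every library. The log2 fold change of value + 5 was -0.46 ± 0.11 in shSMRT (limma, adjusted p = 0.00217) and -0.28 ± 0.11 in shNCOR (limma, adjusted p = 0.105), or -0.36 (adjusted p = 0.0118) and -0.35 (adjusted p = 0.0241) scaled to reads in peaks. Its values thus moved in the direction of Klf4 RNA in both knockdowns. For shSMRT against shNCOR the promoter peak did not pass the test (-0.18 ± 0.11, limma, adjusted p = 0.235), whereas the RNA was higher in shSMRT.

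The Klf13 promoter peak (chr7:63938603-63939721), which covers the whole printed sequence, was at 350.2, 453.8 and 401.8 in shSMRT, 575.5, 567.7 and 535.4 in shNCOR, and 543.4, 515.6 and 491.5 in shGFP. The shSMRT libraries lay below all others. The log2 fold change was -0.37 ± 0.09 in shSMRT (limma, adjusted p = 0.0017), or -0.27 scaled to reads in peaks (adjusted p = 0.00969), while Klf13 RNA was slightly higher there. The Klf6 promoter peak (chr13:5861073-5861606) was at 292.0, 276.8 and 253.3 in shSMRT, 260.0, 336.7 and 293.1 in shNCOR, and 318.7, 272.8 and 310.8 in shGFP. These groups overlapped, with log2 fold changes of -0.13 ± 0.10 in shSMRT (limma, adjusted p = 0.381) and -0.02 ± 0.10 in shNCOR (limma, adjusted p = 0.92), although Klf6 RNA was higher in both. The Klf10 promoter peak was the strongest of the 8 and was likewise uncalled in shSMRT (-0.15 ± 0.09) and shNCOR (0.25 ± 0.09, limma, adjusted p = 0.0593). The promoter peaks of Klf2, Klf3, Klf7 and Klf9 were not called against shGFP either, with log2 fold changes of -0.15 to 0.06 in shSMRT and 0.15 to 0.26 in shNCOR. The median log2 fold change of all promoter peaks was -0.20 in shSMRT and 0.08 in shNCOR, and that of the 8 was -0.15 and 0.17. In shNCOR 0 of the 8 were called as deposited, 5 had an unadjusted p under 0.05, and 1 was called by voom. Over all peaks of every class, 8.58% were called in shNCOR as deposited.

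**Figure D3:**
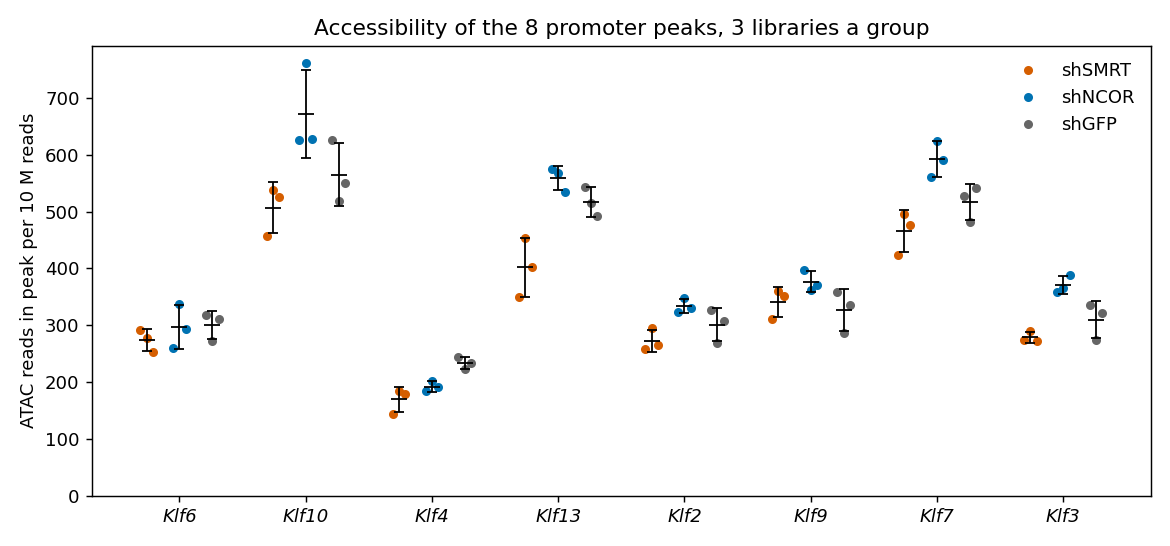
Reads in the promoter peak of each gene per 10 M library reads, ordered by RNA level in shGFP; points are single libraries, and bars are the mean ± SD of 3 libraries a group. Klf4 is the lowest of the 8 peaks in each group, and both knockdowns lie below shGFP there.

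Klf4 had the most intergenic peaks of the 8 genes, 26 of 77, and also the most called ones. This is a count and not a share: in shSMRT 4 of 13 upstream peaks of Klf7 were lower, and in shNCOR 2 of 3 of Klf13. The 24 intergenic upstream peaks of Klf4, from 9.4 to 494 kb before the start site, summed to 2235, 2197 and 2170 in shSMRT, 2145, 2081 and 2153 in shNCOR, and 2520, 2406 and 2528 in shGFP. Both knockdowns lay below shGFP. Scaled to reads in peaks, the sums were 2448, 2301 and 2288 in shSMRT, 2046, 1951 and 2030 in shNCOR, and 2436, 2484 and 2485 in shGFP, so that shSMRT then overlapped with shGFP and shNCOR did not. In shNCOR 7 of the 24 were lower and 0 higher, where 5.48% of all intergenic peaks were lower and 4.74% higher. In shSMRT 4 were lower and 2 higher, where 8.64% were lower and 9.08% higher.

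The strongest of them in shGFP, 208.9 kb upstream (chr4:55741038-55741759), was at 219.7, 225.7 and 234.9 in shSMRT, 194.0, 217.9 and 197.9 in shNCOR, and 312.0, 310.3 and 302.5 in shGFP. It fell in shNCOR (-0.59 ± 0.10, limma, adjusted p = 2.84e-05) as well as in shSMRT (-0.43 ± 0.10, limma, adjusted p = 0.00115). A peak 285.0 kb upstream (chr4:55817100-55817759) was at 124.9, 130.5 and 142.9 in shSMRT, 151.8, 165.0 and 130.7 in shNCOR, and 202.4, 210.9 and 223.2 in shGFP. It fell too (-0.66 ± 0.12 in shSMRT, limma, adjusted p = 5.53e-05, and -0.50 ± 0.12 in shNCOR, limma, adjusted p = 0.0035). In both peaks the knockdown libraries lay below every shGFP library, and the calls held with both scalings and without any single library. Peaks 282.5 kb and 283.5 kb upstream were also lower in shNCOR (-0.58 ± 0.19 and -0.65 ± 0.19), and the first of these in shSMRT (-0.63 ± 0.19). These shNCOR calls were lost without shGFP replicate 1, shGFP replicate 2, shNCOR replicate 2 or shNCOR replicate 3 (the 282.5 kb peak also without shGFP replicate 3), and the shSMRT call without shGFP replicate 1 or 2. In the other direction, peaks 123.0 kb and 494.3 kb upstream were higher in shSMRT (0.65 ± 0.23, limma, adjusted p = 0.0387, and 0.78 ± 0.26, limma, adjusted p = 0.0316). The call at 123.0 kb was lost without shGFP replicate 1 or 2 or shSMRT replicate 1 or 2, and that at 494.3 kb without shGFP replicate 1 or 3 or shSMRT replicate 1 or 2.

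**Figure D4:**
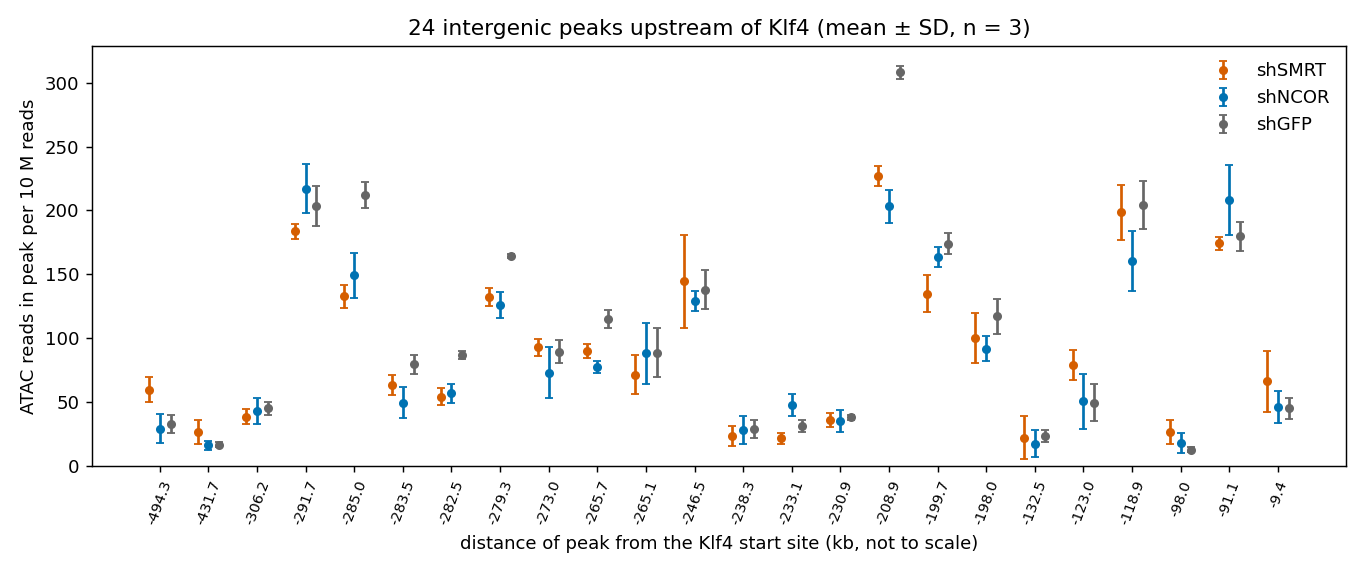
Mean ± SD of 3 libraries a group for the 24 intergenic peaks upstream of Klf4, in order of distance from its start site; the y axis is reads in the peak per 10 M library reads. At 285.0 and 208.9 kb both knockdowns lie below shGFP.

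Among the other members, 1 peak was called higher in both knockdowns as deposited. It lay 7.66 kb into Klf10 (chr15:38292099-38292385), in intron 4 of a longer transcript, and was called in 6 of the 9 libraries. It was at 47.0, 40.8 and 49.5 in shSMRT, 58.1, 54.5 and 41.9 in shNCOR, and 15.7, 25.3 and 20.3 in shGFP. Both knockdowns lay above every shGFP library, with log2 fold changes of 1.01 ± 0.26 in shSMRT (limma, adjusted p = 0.0038) and 1.16 ± 0.26 in shNCOR (limma, adjusted p = 0.00173), and Klf10 RNA was higher in both as well. In shSMRT 3 other Klf10 peaks were lower. The peak 73.3 kb upstream had -0.57 ± 0.11 (limma, adjusted p = 0.000195) and the peak 1.67 kb upstream -0.43 ± 0.13 (limma, adjusted p = 0.0179). The second was called only as deposited (adjusted p = 0.08 scaled to reads in peaks) and not without shGFP replicate 3 or shSMRT replicate 3. The third lay 0.67 kb into Klf10 and had -0.40 ± 0.09 (limma, adjusted p = 0.00133). Scaled to reads in peaks it was at -0.30 (limma, adjusted p = 0.00707).

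Around Klf6, whose RNA rose in both knockdowns, distal peaks were called in both directions. A peak 168.2 kb downstream of its start site (chr13:6029470-6030002) was at 61.0, 39.7 and 63.7 in shSMRT, 22.4, 34.7 and 22.8 in shNCOR, and 15.7, 9.37 and 23.1 in shGFP. It was low in shGFP and was called as a peak in 4 of the 9 libraries. It rose in shSMRT (1.54 ± 0.30, limma, adjusted p = 0.0002) and was higher in shSMRT than in shNCOR (0.91 ± 0.30, limma, adjusted p = 0.0203), the second call being lost without shSMRT replicate 1 or 3 or shNCOR replicate 1 or 3. Peaks at 182.2 kb and 330.5 kb rose in shNCOR (0.88 ± 0.24, limma, adjusted p = 0.011, and 0.61 ± 0.16, limma, adjusted p = 0.0119). In shSMRT they were at 0.60 ± 0.24 (limma, adjusted p = 0.0666) and 0.42 ± 0.16 (limma, adjusted p = 0.0625), and both were called there when scaled to reads in peaks. Between shSMRT and shNCOR neither was called (limma, adjusted p = 0.414 and 0.449), nor were the peaks at 50.1 kb and 25.5 kb (limma, adjusted p = 0.104 and 0.0736). The call at 182.2 kb was lost without shGFP replicate 2 and that at 330.5 kb without shGFP replicate 1 or shNCOR replicate 3. A weak peak at 50.1 kb fell in shNCOR (-1.03 ± 0.31, limma, adjusted p = 0.0241), though not without shGFP replicate 1, shGFP replicate 2 or shNCOR replicate 2. The peak at 25.5 kb was lower in shSMRT (-0.49 ± 0.16, limma, adjusted p = 0.0281), but not scaled to reads in peaks (adjusted p = 0.0948), and the call ended without any shGFP library or without shSMRT replicate 1 or 2.

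Near Klf2, the peak 37.2 kb upstream (chr8:72281648-72282074) was at 96.7, 94.2 and 76.4 in shSMRT, 68.6, 64.4 and 110.4 in shNCOR, and 165.5, 132.2 and 145.7 in shGFP. It lay below shGFP in all 6 knockdown libraries and fell in shNCOR (-0.86 ± 0.16, limma, adjusted p = 0.000192) as well as in shSMRT (-0.70 ± 0.16, limma, adjusted p = 0.00137). The peak 23.2 kb upstream was lower in shSMRT as deposited (-0.33 ± 0.09, limma, adjusted p = 0.00784), but not scaled to reads in peaks (adjusted p = 0.0529) or without shGFP replicate 1.

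Near Klf13 and Klf3 intergenic peaks were called lower in shNCOR. The peak 62.8 kb upstream of Klf13 (chr7:64001557-64001907) was at 56.3, 70.3 and 63.7 in shSMRT, 38.3, 26.4 and 30.5 in shNCOR, and 92.8, 60.9 and 72.9 in shGFP. The shNCOR libraries were below all others, with a log2 fold change of -1.13 ± 0.21 (limma, adjusted p = 0.000233) in shNCOR and a difference of 0.91 ± 0.21 between shSMRT and shNCOR (limma, adjusted p = 0.00136). A weaker peak 60.9 kb upstream also passed in shNCOR (-1.01 ± 0.34, limma, adjusted p = 0.0497), but not in 12 of the alternatives and left-out libraries. The peak 73.1 kb upstream rose in shSMRT (0.39 ± 0.09, limma, adjusted p = 0.00126). In shNCOR it was at 0.24 ± 0.09 (limma, adjusted p = 0.0887), with every library above those of shGFP. Between shSMRT and shNCOR it was not called as deposited (0.16 ± 0.09, limma, adjusted p = 0.2). Scaled to reads in peaks it was called higher in shSMRT than in shNCOR (0.33, adjusted p = 0.00324). The peak 61.3 kb downstream of the Klf3 start site was at 24.4, 26.1 and 8.49 in shSMRT, 5.28, 3.30 and 14.0 in shNCOR, and 31.3, 46.9 and 44.3 in shGFP. It was called as a peak in 5 of the 9 libraries. It fell in shNCOR (-1.95 ± 0.37, limma, adjusted p = 0.000257), while its value in shSMRT was -0.97 ± 0.37 (limma, adjusted p = 0.0592). In shSMRT it was called lower in 6 of the alternatives and left-out libraries: quantile normalization, the 6-library fit, and the fits without shNCOR replicate 1, 2 or 3 or shSMRT replicate 2. The difference between shSMRT and shNCOR (0.98 ± 0.37, limma, adjusted p = 0.0459) was lost in 11 of them. The peak 9.12 kb into Klf3 was lower in shSMRT (-0.45 ± 0.14, limma, adjusted p = 0.0201), but not scaled to reads in peaks (adjusted p = 0.0819), nor without shGFP replicate 2 or 3 or shSMRT replicate 1.

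Klf7, uncalled in RNA, had 4 of 13 upstream intergenic peaks lower in shSMRT and 1 higher in shNCOR, where 8.64% of all intergenic peaks were lower in shSMRT and 4.74% higher in shNCOR. The peak 104.8 kb upstream was at 72.3, 47.6 and 28.3 in shSMRT, 110.9, 97.4 and 115.4 in shNCOR, and 82.7, 108.8 and 86.7 in shGFP. The shSMRT libraries lay lowest, with -0.92 ± 0.19 against shGFP (limma, adjusted p = 0.000569) and -1.13 ± 0.19 against shNCOR (limma, adjusted p = 2.79e-05). The peak 181.6 kb upstream was lower in shSMRT (-0.69 ± 0.21, limma, adjusted p = 0.0154), though not without shGFP replicate 1 or 3 or shSMRT replicate 2. It was called as a peak in 3 of the 9 libraries. The peak 180.2 kb upstream was higher in shNCOR as deposited (0.31 ± 0.09, limma, adjusted p = 0.0203), but not scaled to reads in peaks (adjusted p = 0.0602), nor without shGFP replicate 3 or shNCOR replicate 1 or 2. Of the 4 Klf9 peaks, 0 were called against shGFP by limma or voom, and 1 in shSMRT and 2 in shNCOR had an unadjusted p under 0.05. Over all peaks, 17.7% were called in shSMRT and 8.58% in shNCOR by limma as deposited.

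**Figure D5:**
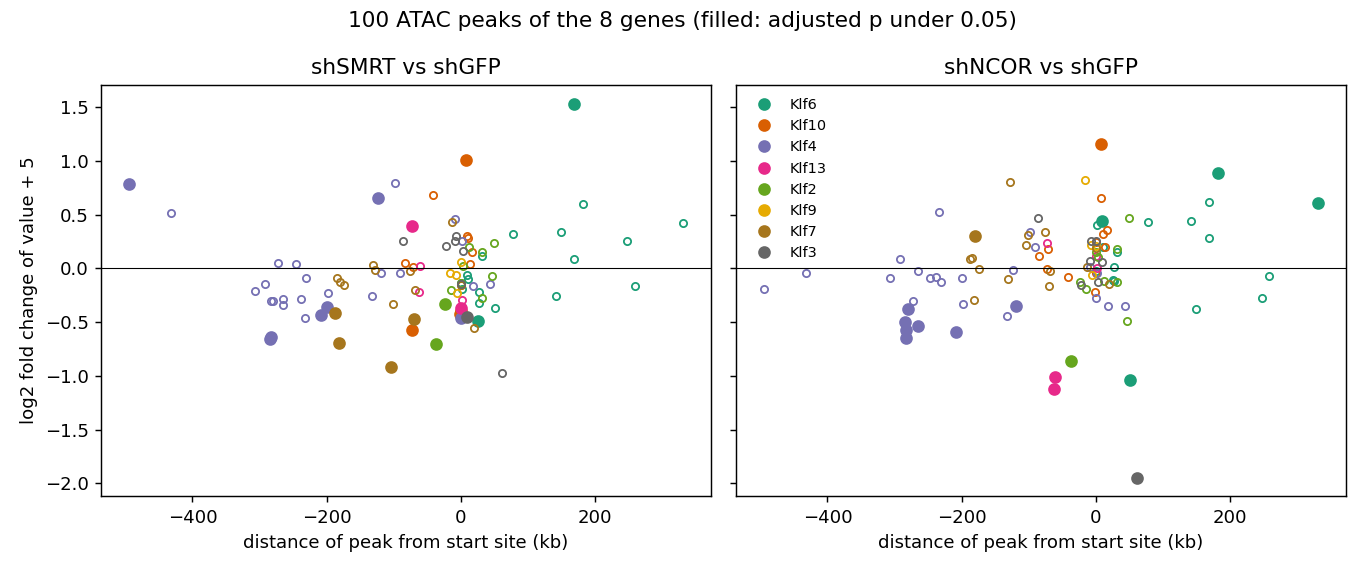
Log2 fold change of value + 5 for the 100 peaks against their distance from the start site of the gene, in shSMRT (left) and shNCOR (right) against shGFP; colours are genes and filled points had an adjusted p under 0.05. The filled Klf4 points between 119 and 285 kb upstream lie below 0 in shNCOR, and the highest point in shSMRT is the Klf6 peak at 168.2 kb.

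Set against shNCOR directly, shSMRT had 9 member peaks higher and 17 lower, where 24.4% of all peaks were called (6.93% higher and 17.5% lower). Scaling to reads in peaks moved the median log2 fold change of all peaks to 0.04, against -0.12 as deposited, and the member peaks were then 13 higher and 7 lower (15% of all called, 9.95% higher and 5.02% lower). Over all peaks the split was 3565 higher and 8999 lower as deposited, against 5121 and 2582. Calls held in the same direction with both scalings for 16 of the 26, and without shSMRT replicate 1 there were 17 calls in place of 26. Among promoters these were Klf3 (-0.40 ± 0.09, limma, adjusted p = 0.00104), Klf10 (-0.40 ± 0.09, limma, adjusted p = 0.000511) and Klf13 (-0.48 ± 0.09, limma, adjusted p = 4.81e-05), which were lower in shSMRT, the first 2 not with quantile normalization. As deposited, 5 of the 8 promoter peaks were called lower, those of Klf2 (-0.29 ± 0.09) and Klf7 (-0.34 ± 0.08) being the others. Neither of these was called when scaled to reads in peaks (limma, adjusted p = 0.357 and 0.0736). Over all promoter peaks 44.4% were called lower as deposited, with a median of -0.29.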

How the data were processed

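RNA-seq and ATAC-seq values of 18 libraries were used, with groups taken from the titles in the labels. The deposited RNA values are RPKM, which HOMER counted over mm10 exons on both strands, per the file headers. The deposited ATAC values are, per the file headers, reads per peak of a merged list, scaled to 10 M reads (M, mega); Bowtie2, HISAT2 and MACS2 stand in the submitters' processing notes with no role, and the sources used here do not say which of them made each file. Values were whole multiples of 1 read within 0.1 read, which gave each library's depth. ATAC decimal commas were read as points, and 1 peak with a cell without a number was left out. In the 16119 genes above 0 in some library and in the peaks, libraries of a group differed by more than sampling noise (chi-square per feature 1.64 to 9.65).

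Each assay was fitted once over its 9 libraries with limma 3.58.1 (in R 4.3.3), letting the variance follow the mean, on log2(RPKM + 1), for genes of at least 1 RPKM in 3 libraries, or on log2(value + 5), for peaks of at least 10 in 3 libraries. A feature was called where its Benjamini-Hochberg adjusted p over all features was under 0.05, and every adjusted p given comes from limma. These log2 fold changes understate the change of low genes. The fit was tested on simulated data. Members and lists were chosen with earlier results of these data known. Named besides the 8 genes were the Klf and Sp genes that passed the filter, up to 4 called examples per list, the 3 most similar genes (mean of at least 5 RPKM) for members called with a log2 fold change of at least 0.5 in size, each promoter peak, and per member and knockdown the 2 highest and 2 lowest called peaks. The gene for SMRT and a few other results are not reported here. Other pseudocounts, filters, scalings, a replicate block, voom on recovered reads, 6-library fits and leaving out each library were tried; voom for ATAC was added after seeing the data.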

Additional observations from a re-analysis of the deposited data

How the results depend on the processing

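Of the counts of calls, those of RNA genes and of members called against shGFP stayed within 1.5 times under every alternative run. For shSMRT against shNCOR, where 1 member (Klf4) was called, 2 were called with TMM scaling and 3 with the exon length trend removed, Klf2 being one of them in both. Peaks called between shSMRT and shNCOR numbered 12564, but 5951 with quantile normalization, 7703 scaled to reads in peaks and 6494 with voom, which called 15 member peaks in place of 26; the cause was not tested. Leaving out 1 library gave 3364 to 3942 called genes and 5 to 6 members in shNCOR, 5311 to 6223 and 4 to 5 in shSMRT, and 4960 to 5597 and 1 to 2 between shSMRT and shNCOR (2 without shGFP replicate 2 or shSMRT replicate 2). In ATAC it gave 2544 to 4588 called peaks and 8 to 17 member peaks in shNCOR, 5119 to 10180 and 14 to 23 in shSMRT, and 8920 to 12131 and 17 to 24 between them. Of these, the called peaks in shNCOR were 2840, 2544 and 2738 without shGFP replicates 1, 2 and 3, against 4414, and those in shSMRT 5119 without shGFP replicate 1, against 9101. Where this leaves 2 libraries in a group, the fit assumes that they vary like the other groups. Among the genes and peaks followed through the alternatives, no called value changed sign. The other member peaks and the features outside the named ones were not checked for this. Of the named peaks, those whose call against shGFP was lost when scaled to reads in peaks (Klf2 at 23.2 kb, Klf3 at 9.12 kb, Klf6 at 25.5 kb, Klf7 at 180.2 kb, Klf10 at 1.67 kb) also lost it with quantile normalization, and the call of the Klf6 peak at 50.1 kb was lost with voom. Quantile normalization and voom also called the Klf4 promoter peak lower in shNCOR, and quantile normalization called the Klf9 promoter peak higher in shSMRT. Deviations of same-numbered libraries from their group means were weakly correlated (r -0.06 to 0.105 in RNA, -0.043 to 0.022 in ATAC). For differently numbered libraries r was -0.126 to 0.081 in RNA and -0.040 to 0.050 in ATAC. Values this small cannot show whether the numbers mark a pairing. With the replicate block 6 members were called in shNCOR, 5 in shSMRT and 1 between them, and 15, 23 and 26 member peaks. Over all genes the block gave 4255, 6156 and 5740 calls, against 4056, 6016 and 5590. Planned count models (edgeR) were not run on these scaled values. Calls of both weak and strong peaks ended when a library was left out, and the part of depth in this was not tested.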
